A study of Mus musculus with 18 samples.

Results

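Inguinal white fat of C57BL/6 mice, a subcutaneous depot (iWAT), was compared between a rotating light schedule and a regular one. All 6 inguinal libraries were used, of 18 libraries in the series. The control group, with 3 libraries, kept a regular day of 12 h light and 12 h dark, with lights on at 5 AM. The shiftwork group, also with 3 libraries, kept that cycle for 4 days of every week and the reversed cycle for the other 3 days. Both groups were of the same strain, both schedules ran for 24 weeks, and all 6 libraries are labelled ZT3 (8 AM). No genotype or drug separates the groups. The labels give no age or sex and do not say whether the replicates are separate animals, so p-values measure only the spread between these samples. The 12 libraries of epididymal fat (eWAT, a visceral depot) are used here only to set clock gene levels side by side.

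White adipocytes store triglyceride, make fatty acids from glucose through lipogenic enzymes and release them by lipolysis between meals. Fat cells also hold a circadian clock: BMAL1 (gene Arntl) with CLOCK or NPAS2 activates the Per, Cry, Nr1d and D-box output genes, whose products feed back on the activators. Rotating light schedules are used in mice as a model of shift work because light and feeding set this clock. The inguinal depot surrounds a lymph node and lies against body wall muscle and skin, so dissected samples can carry RNA of those tissues.

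Whole reads assigned to genes numbered 55639501, 28656928 and 30811859 in control replicates 1 to 3 and 30003482, 28544338 and 29060486 in shiftwork replicates 1 to 3. Control replicate 1 was the deepest library. Levels below are CPM (reads of a gene after scaling the assigned reads of a library to 1000000) unless RPKM (the same per kilobase of gene length) is named. A floor of 3 reads corresponds to 0.0539 to 0.105 CPM, and this floor covers counting error only.

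Transcripts of lymph node and skeletal muscle differed widely between libraries of the same schedule. On the first principal component, with 47.9% of the variance, control replicates 1 and 2 lay at -68.2 and -97.2 and the other 4 libraries between 28.9 and 63.3. The B cell gene Cd79a, which encodes the signalling chain Ig-alpha, reached 134 CPM in control replicate 1 and 268 CPM in control replicate 2 but 2.11 CPM in control replicate 3, and 2.33, 5.57 and 0.310 CPM in the shiftwork libraries. Control replicates 1 and 2 were high, and control replicate 3 lay within the shiftwork range. The 17 B and plasma cell genes summed to 2558, 3693 and 286.6 CPM in the controls and to 206.0 to 354.5 CPM under shiftwork. The 22 T and NK cell genes summed to 1027, 1903 and 39.9 CPM in the controls and to 63.0 to 76.1 CPM under shiftwork. Most genes of lymph node stroma were also highest in control replicates 1 and 2. Glycam1, an adhesion ligand of lymph node venules, had 834, 1842 and 9 reads in the controls and 0, 20 and 1 reads under shiftwork. Cr2, a complement receptor of B cells and follicular dendritic cells, stood at 95.9, 106 and 0.974 CPM in the controls and at 0.533, 2.80 and 0.0688 CPM under shiftwork. The 11 genes of that list summed to 401.9, 784.3 and 24.1 CPM in the controls and to 128.1, 110.2 and 101.5 CPM under shiftwork, so control replicate 3 lay below all shiftwork libraries. Members of the list differed from each other. Cxcl13, a chemokine of B cell follicles, was as high in shiftwork replicate 3, at 80.6 CPM, as in control replicate 1, at 80.5 CPM. Ubd, a ubiquitin-like protein induced by inflammatory cytokines, stood at 16.4, 23.4 and 8.28 CPM in the controls and at 114, 93.9 and 13.6 CPM under shiftwork. In bulk tissue fewer cells of a type and less RNA per cell cannot be told apart.

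Muscle transcripts were concentrated in 1 library of the other group. Ckm, the muscle creatine kinase, stood at 15.7, 9.14 and 7.46 CPM in the controls and at 8186, 127 and 19.8 CPM in shiftwork replicates 1 to 3. The groups did not overlap, and shiftwork replicate 1 exceeded all other libraries. The 26 fast skeletal muscle genes summed to 77510 CPM in shiftwork replicate 1, to 1297 CPM in replicate 2, to 256.4 CPM in replicate 3 and to 159.0 to 259.5 CPM in the controls. Myh4, the myosin heavy chain of the fastest fibres, reached 16503 CPM in that library against 12.1 to 32.1 CPM in the controls. Myod1, a transcription factor of muscle precursor cells, had 164 reads there and at most 2 reads in any other library. Slow fibre myosin Myh7 was near the floor in all 6 libraries, with 0 to 18 reads. Gene lists and the genes whose difference moved by over 1.5 times are therefore also given without 3 libraries, namely control replicates 1 and 2 and shiftwork replicate 1, which leaves 1 control against 2 shiftwork libraries. The part of lymph node and muscle RNA in the other differences was not tested.

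**Figure D1:**
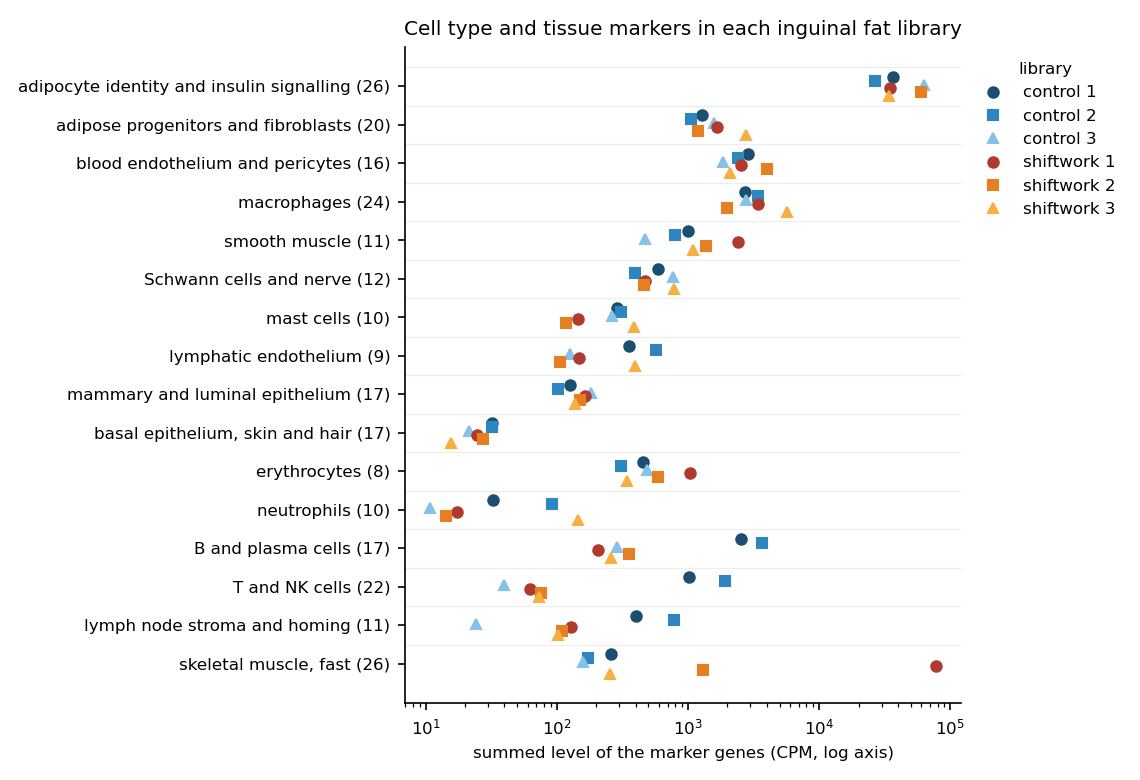
Summed CPM (log axis) of marker gene lists in each of the 6 inguinal libraries, with the number of genes in parentheses; blue points are controls, red to yellow points are shiftwork. Control replicates 1 and 2 stand apart for lymphocyte and lymph node genes, and shiftwork replicate 1 reaches 77510 CPM for fast muscle genes.

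Adipocyte transcripts were abundant in all 6 libraries. The 26 adipocyte identity and insulin signalling genes summed to 36640, 26850 and 62750 CPM in the controls and to 34710, 59870 and 33830 CPM under shiftwork. Fabp4, the fatty acid binding protein of fat cells, ranged from 901 RPKM in control replicate 2 to 2681 RPKM in shiftwork replicate 2. Lactation genes of mammary epithelium were at or near 0, with 0 to 4 reads for Csn2, a milk casein, and 0 reads for Wap, the whey acidic protein. From the same mammary and luminal epithelium list, Krt19 had 21 to 99 reads, Cdh1 4 to 125 and Prlr 39 to 210 across the 6 libraries. The keratins Krt5 and Krt14 of basal epithelium had at most 9 reads in any library, and Flg (filaggrin) of the outer skin had 0 reads. Other genes of the skin and basal epithelium list were detected in every library, with 90 to 283 reads for Trp63, a regulator of basal epithelium, 130 to 759 for Krt79 and 73 to 581 for Sfn.

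No gene passed the test between the schedules. With limma on log2(normalized reads + 1), 0 of 16159 tested genes (0%) had a Benjamini-Hochberg adjusted p under 0.05, and the smallest adjusted p was 0.69. At an unadjusted p under 0.05, 1073 genes stood out, 582 higher under shiftwork (3.60%) and 491 lower (3.04%). Over all tested genes 51.9% had the higher value under shiftwork, and the median log2 difference was 0.02. On the recovered reads, the edgeR quasi-likelihood test also called 0 genes, with 1599 at an unadjusted p under 0.05. By contrast 445 genes passed in DESeq2, of which 138 were higher (0.854%) and 307 lower (1.90%), while 465 received no adjusted p.

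The DESeq2 calls divided by library pattern. Of the 307 genes called lower, 264 (86.0%) had more than 2 times the normalized reads of control replicate 3 in both control replicates 1 and 2, a pattern found in 9.69% of all tested genes. Of the 138 genes called higher, 1 had that pattern. In 8 (5.8%) shiftwork replicate 1 stood at more than 2 times both other shiftwork libraries, against 3.58% of all tested genes. For shiftwork replicate 3 the same count was 8 (5.8%), against 5.43% of all tested genes. Genes without an adjusted p could not enter these counts. They included the muscle gene Myh4, highest in shiftwork replicate 1, and the interferon-induced gene Isg15, highest in shiftwork replicate 3. These shares therefore cover only genes that received an adjusted p. The groups did not overlap in CPM for 125 of the 138 (90.6%), for 96 of the 307 called lower (31.3%) and for 10.6% of all tested genes. Calls and overlap come from the same reads, so a low overlap among called genes is no independent support. Leaving out control replicate 3 gave 372 limma calls, 20 higher and 352 lower, and 342 of the 352 (97.2%) had the same control pattern. Leaving out any other single library, or all 3 named above, gave 0 limma calls.

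Counts of genes whose groups did not overlap depended on the scaling. In CPM, all 3 shiftwork values lay above all 3 control values for 653 genes (4.04%) and below them for 1064 genes (6.58%). With the deposited normalized reads the same counts were 1188 genes (7.35%) and 890 genes (5.51%). Scaling by total reads moved the median log2 difference of all genes from 0.02 to -0.10. Log2 differences below use the deposited normalization, relative to that median of 0.02, and are given as shiftwork minus control with the standard error (SE).

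**Figure D2:**
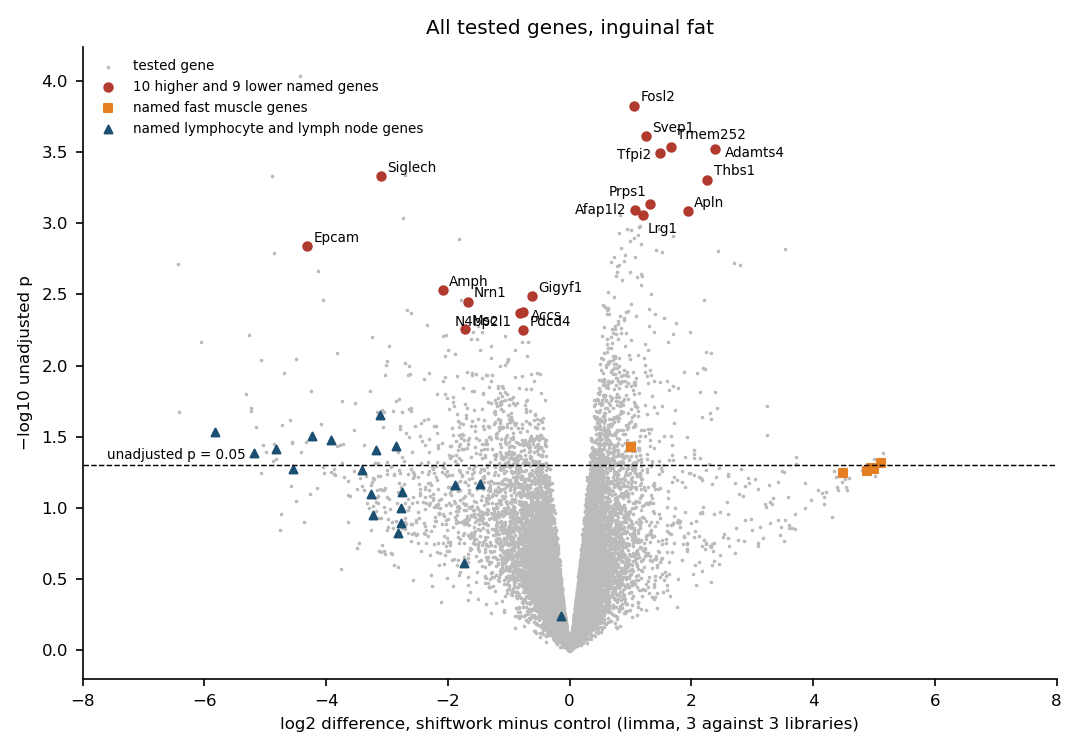
Each grey point is 1 of 16159 tested genes, with the log2 difference of shiftwork minus control on the x axis and -log10 of the unadjusted limma p on the y axis. The 10 higher genes with the smallest p, all without overlap, lie between 1.06 and 2.39 on the x axis, while named muscle genes reach 5.11 and lymphocyte and lymph node genes -5.83, most of them near or below the dashed line at an unadjusted p of 0.05.

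The 10 genes that were higher with the smallest p, and whose groups did not overlap, included an AP-1 subunit, a thrombospondin and a group of secreted factors. Fosl2 (also called Fra-2, an AP-1 transcription factor of the FOS family, mm10 chr5:32136472-32157839) stood at 63.9, 54.3 and 50.7 CPM in the controls and at 103, 105 and 110 CPM under shiftwork. The shiftwork libraries lay within 7 CPM of each other, and the log2 difference was 1.06 with an SE of 0.13 (limma adjusted p 0.69, DESeq2 adjusted p 8.11e-10). Without the 3 libraries it was 1.0.

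Thbs1 (thrombospondin 1, a matrix glycoprotein that can activate latent TGF-beta, mm10 chr2:118111876-118127133) stood at 62.3, 48.8 and 22.7 CPM in the controls and at 139, 166 and 245 CPM under shiftwork. Its log2 difference was 2.26 (SE 0.35) with all libraries and 3.07 without the 3. Adamts4, a protease that cleaves aggrecan and versican, stood at 2.57, 2.16 and 2.08 CPM in the controls and at 6.73, 11.8 and 15.9 CPM under shiftwork. That gave a log2 difference of 2.39 (SE 0.34), and 2.62 without the 3 libraries. In both genes every shiftwork library exceeded every control, with the highest value in shiftwork replicate 3.

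Apln, the gene of the adipokine and vascular peptide apelin, stood at 16.8, 13.2 and 6.20 CPM in the controls and at 30.2, 50.2 and 38.6 CPM under shiftwork. Lrg1, a secreted leucine-rich glycoprotein of the acute phase, stood at 316, 337 and 238 CPM in the controls and at 678, 528 and 647 CPM under shiftwork. Svep1, a large extracellular adhesion protein, stood at 139, 119 and 127 CPM in the controls and at 289, 257 and 288 CPM under shiftwork. For these 3 genes no control reached a shiftwork value, with log2 differences of 1.95 (SE 0.33), 1.21 (SE 0.21) and 1.26 (SE 0.17). The others were Tfpi2, an inhibitor of serine proteases (1.48, SE 0.21), Prps1, which makes the nucleotide precursor PRPP (1.32, SE 0.22), Tmem252, a membrane protein (1.66, SE 0.24), and the adaptor Afap1l2 (1.08, SE 0.18). All 10 kept a log2 difference of at least 0.89 without the 3 libraries, and all 10 were called by DESeq2, where the largest adjusted p among them was 0.000365. The 10 were chosen by small p and no overlap in the same 6 libraries, so these values are no independent support.

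The lower genes chosen by the same rule included a dendritic cell lectin and an epithelial adhesion molecule that were lower in control replicate 3 than in the other controls. Siglech, a lectin that marks plasmacytoid dendritic cells, stood at 20.8, 30.8 and 8.05 CPM in the controls and at 2.13, 1.89 and 1.45 CPM under shiftwork. Epcam, an epithelial adhesion molecule, had 135, 88 and 25 reads in the controls and 0, 4 and 3 reads under shiftwork. In both genes control replicate 3 was the lowest control but still above all shiftwork libraries, and the log2 difference of Siglech was -3.10 (SE 0.47), or -2.34 without the 3 libraries. That of Epcam moved from -4.31 (SE 0.81) to -2.56.

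Of the other lower genes, Nrn1, N4bp2l1 and Accs had similar values in all 3 controls. Nrn1 (neuritin, a protein of the outer cell membrane first known from neurons) stood at 8.27, 11.1 and 11.8 CPM in the controls and at 1.77, 3.47 and 3.96 CPM under shiftwork. N4bp2l1 stood at 45.5, 54.8 and 48.1 CPM in the controls and at 19.7, 27.4 and 29.8 CPM under shiftwork. Accs stood at 16.5, 18.7 and 16.2 CPM in the controls and at 8.53, 10.1 and 8.64 CPM under shiftwork. For these 3 genes control replicate 3 did not stand apart from the other controls, and the log2 differences were -1.67 (SE 0.37), -0.82 (SE 0.19) and -0.77 (SE 0.18), or -1.74, -0.83 and -0.88 without the 3 libraries. Further lower genes were Amph, an endocytosis protein (-2.09, SE 0.45), Gigyf1, which takes part in translational repression (-0.62, SE 0.14), the transcription factor Msc (-1.72, SE 0.42) and Pdcd4, an inhibitor of translation initiation (-0.77, SE 0.19). Control replicate 3 was the lowest control for Amph, Gigyf1, Msc and Pdcd4. Amph stood at -1.35 and Pdcd4 at -0.47 without the 3 libraries.

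**Figure D3:**
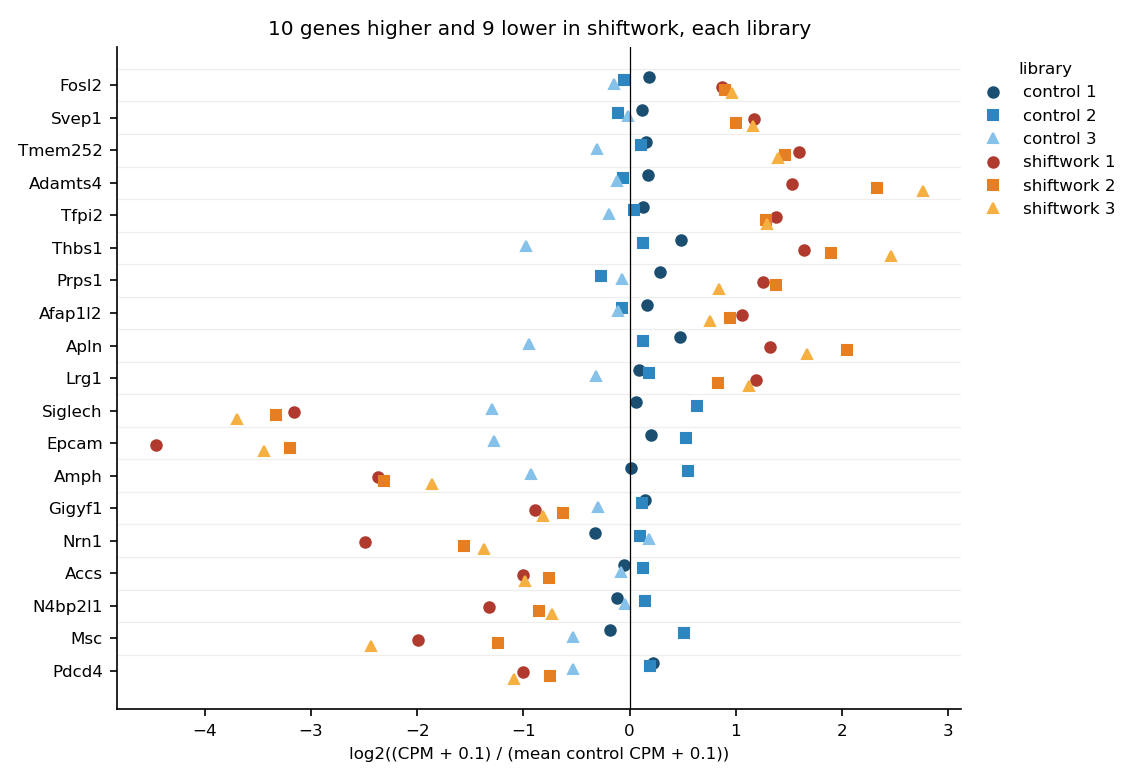
Each row is 1 of 19 named genes and each point 1 library, placed by the log2 ratio of its CPM + 0.1 to the mean control CPM + 0.1. Shiftwork points lie to the right of all control points in the upper 10 rows and to the left in the lower 9, as the choice of genes required. Control replicate 3 sits towards the shiftwork side for Siglech, Epcam and Amph.

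Of the clock genes, Npas2, Nfil3 and Per1 were higher and Hlf and Nr1d1 lower under shiftwork without overlap in CPM. None passed the limma test. All 7 tested genes of the positive arm list, which also holds the repressor Cry1, had a higher value under shiftwork, with a median log2 difference of 0.37. Of these, 2 of 7 did not overlap, against 4.04% of all tested genes, namely Npas2 and Nfil3, of which Nfil3 is itself a repressor of D-box genes. The groups overlapped for Arntl and Clock, and the difference of Rora was 0.07, or -0.51 without the 3 libraries. Of the 16 repressors and outputs, 12 were lower and 4 higher, with a median of -0.18. Without the 3 libraries 5 of 7 and 2 of 16 were higher, with medians of 0.37 and -0.60. Of all 23 clock genes, 10 changed sign in at least 1 alternative fit, among them Rora, Per2, Cry2 and Bhlhe40.

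Nfil3, a repressor that competes with the D-box activators, stood at 8.14, 10.3 and 7.92 CPM in the controls and at 16, 21.8 and 15.9 CPM under shiftwork. Its lowest shiftwork value was above its highest control value, and its log2 difference was 1.16 (SE 0.21; limma adjusted p 0.69, DESeq2 adjusted p 0.000397), or 1.15 without the 3 libraries. Npas2, the partner of BMAL1 that can replace CLOCK, stood at 1.20, 1.01 and 1.14 CPM in the controls and at 1.63, 2.49 and 2.48 CPM under shiftwork, a log2 difference of 1.08 (SE 0.32; limma adjusted p 0.69, DESeq2 adjusted p 0.0427). Arntl, the gene of BMAL1, stood at 13.7, 20.8 and 5.74 CPM in the controls and at 14.9, 25.9 and 19.8 CPM under shiftwork. The Arntl groups overlapped, control replicate 3 was lowest, and the log2 difference was 0.88 (SE 0.43), or 1.89 without the 3 libraries.

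Per1, a repressor of the loop that glucocorticoids and cAMP also induce, stood at 98.0, 77.3 and 78.0 CPM in the controls and at 105, 127 and 99.5 CPM under shiftwork. The gap between the groups was small, from 98.0 to 99.5 CPM, and the log2 difference was 0.53 (SE 0.16). Hlf, a D-box activator, went the other way, at 48, 29.8 and 47.1 CPM in the controls and 22, 25.3 and 25.9 CPM under shiftwork, a log2 difference of -0.60 (SE 0.24), or -0.96 without the 3 libraries. Nr1d1, the gene of the repressor REV-ERB alpha, stood at 397, 258 and 399 CPM in the controls and at 229, 129 and 216 CPM under shiftwork. Its groups did not overlap in CPM but overlapped in normalized reads, with a log2 difference of -0.75 (SE 0.34), or -1.34 without the 3 libraries.

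Dbp, the main D-box activator, stood at 197, 111 and 190 CPM in the controls and at 109, 40.8 and 139 CPM under shiftwork. The groups overlapped, since control replicate 2 lay below shiftwork replicate 3, and the log2 difference was -0.77 (SE 0.53), or -1.42 without the 3 libraries. Per3 and Ciart, further repressors of the loop, were lower by -0.50 (SE 0.33) and -0.75 (SE 0.46), again with overlapping groups, and by -1.04 and -1.33 without the 3 libraries. Control replicate 2 was the lowest control for Dbp, Hlf, Nr1d1 and Per3 and the highest for Arntl. Usp2, a deubiquitinase with clock and muscle isoforms, stood at 72.2 CPM in shiftwork replicate 1, the library with muscle transcripts, and at 13.3 to 18.7 CPM elsewhere.

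Of 4 clock genes whose groups did not overlap in either scaling, 3 are shown with a promoter window that holds at least 1 match to sequences through which clock and cAMP factors are known to act. The window of Npas2 and a second window of Per1 held 0 matches and are not shown. Each is the RefSeq window of 250 bases before to 50 after the start (GRCm38.p6), 5′ to 3′ on the strand of the gene. Capitals mark matches, on either strand, to the E-box CACGTG, the D-box forms TTATGTAA and TTATGCAA, the ROR and REV-ERB half-site AGGTCA and the cAMP element TGACGTCA.
Per1 (chr11:69098699-69098998, plus strand): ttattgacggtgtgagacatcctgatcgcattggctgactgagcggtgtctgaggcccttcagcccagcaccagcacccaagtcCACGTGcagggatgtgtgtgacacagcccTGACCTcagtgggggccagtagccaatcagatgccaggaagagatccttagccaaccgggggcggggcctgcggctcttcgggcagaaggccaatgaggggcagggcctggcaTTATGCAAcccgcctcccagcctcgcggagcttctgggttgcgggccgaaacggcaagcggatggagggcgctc
Nfil3 (chr13:52980990-52981289, minus strand): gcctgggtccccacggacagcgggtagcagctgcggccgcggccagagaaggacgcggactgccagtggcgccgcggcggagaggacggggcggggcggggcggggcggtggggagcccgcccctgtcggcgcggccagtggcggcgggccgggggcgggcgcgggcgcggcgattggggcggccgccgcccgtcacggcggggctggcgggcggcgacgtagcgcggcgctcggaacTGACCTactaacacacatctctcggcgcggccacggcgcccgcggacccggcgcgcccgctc
Hlf (chr11:90390868-90391167, minus strand): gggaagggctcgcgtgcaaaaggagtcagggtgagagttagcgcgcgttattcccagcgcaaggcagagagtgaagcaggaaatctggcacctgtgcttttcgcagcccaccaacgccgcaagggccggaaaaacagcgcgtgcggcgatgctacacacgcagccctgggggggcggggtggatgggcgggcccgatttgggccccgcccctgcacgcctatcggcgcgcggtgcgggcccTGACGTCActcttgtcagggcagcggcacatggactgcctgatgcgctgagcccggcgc
The Per1 window holds an E-box 166 bases before the start, a half-site in reverse 137 bases before it and a D-box 24 bases before it. The Nfil3 window holds a half-site in reverse 12 bases before the start, and the Hlf window a cAMP element 9 bases before it. Of 32851 such windows of all genes, 7.15% held the E-box, 16.3% the half-site, 1.79% the cAMP element, and 0.938% and 0.743% the D-box forms, so single matches to the half-site are common. The matches are a description of these letters and no binding was measured.

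**Figure D4:**
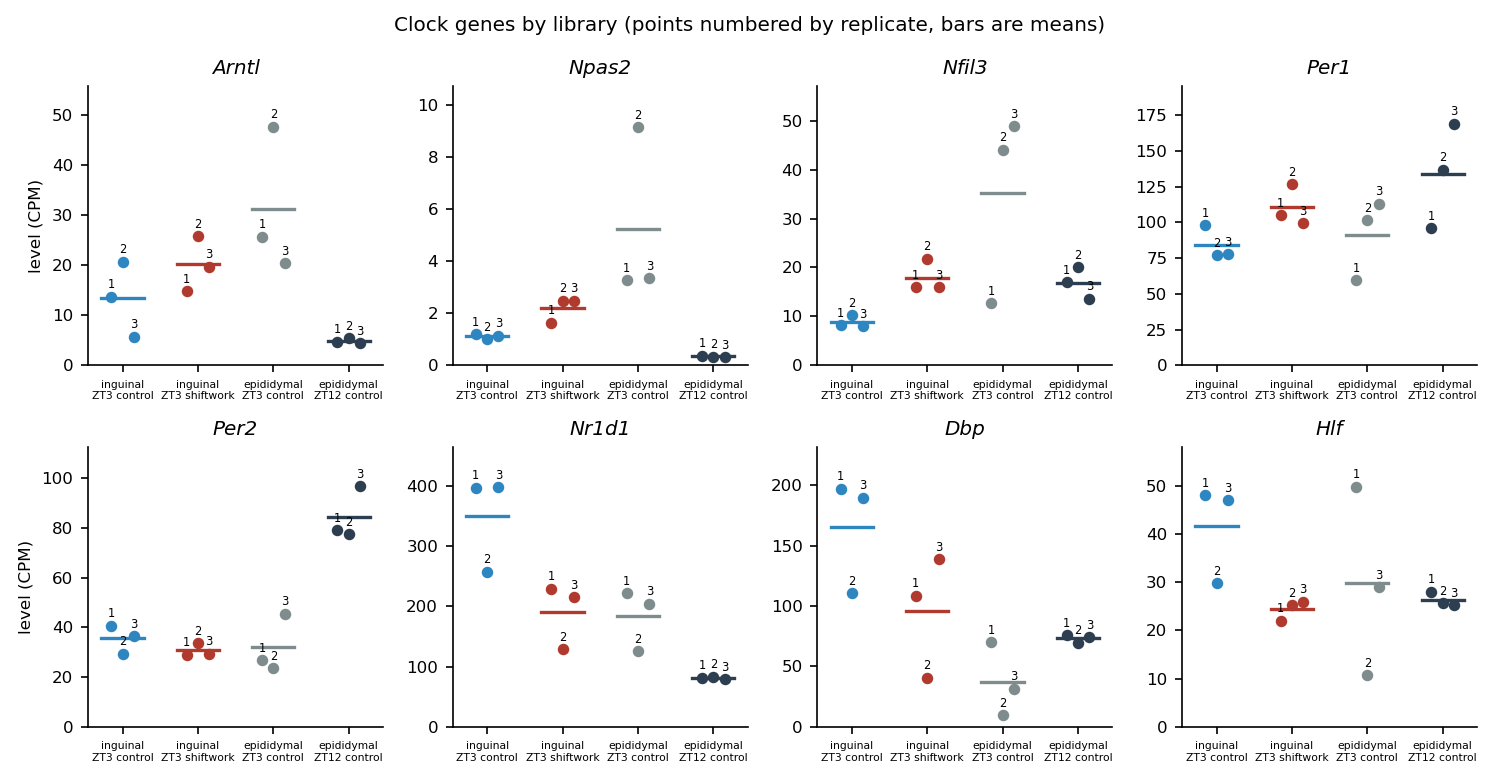
CPM of 8 clock genes in each library, numbered by replicate, with bars at the group means; the 2 left groups are inguinal fat, and the 2 right groups are epididymal control libraries at ZT3 and ZT12. Nfil3 and Npas2 lie higher and Hlf and Nr1d1 lower in inguinal shiftwork than in inguinal controls, without overlap, and inguinal Arntl values spread from 5.74 to 25.9 CPM.

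The labels give the inguinal controls the library numbers 14, 15 and 16 and shiftwork replicate 3 the number 45, which are also numbers of epididymal libraries labelled ZT12. Whether equal numbers stand for the same animals is not given in the sources used here. Epididymal values come from a separately processed table and are set beside the inguinal ones only as levels. Epididymal control Arntl stood at 25.7, 47.7 and 20.4 CPM at ZT3 and at 4.74, 5.47 and 4.44 CPM at ZT12. Inguinal control replicates 1 and 3 lay below all epididymal ZT3 controls, and control replicate 3, at 5.74 CPM, lay just above the highest ZT12 value. For Per2, a repressor that is high in the evening, epididymal controls stood at 26.7, 23.5 and 45.4 CPM at ZT3 and at 79.2, 77.5 and 96.7 CPM at ZT12, and inguinal controls at 40.6, 29.4 and 36.5 CPM, within the ZT3 range. For Arntl, inguinal control replicate 2, at 20.8 CPM, lay within the epididymal ZT3 range. Relative to the epididymal times, Arntl and Per2 placed inguinal control replicates 1 and 3 differently. These are 2 of 23 clock genes, and the others did not all place the controls alike. Inguinal control values of Tef lay above all epididymal ZT3 controls, and those of Dbp and Nr1d1 above the epididymal controls of both times.

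Genes of the immediate early class, which respond to stimuli within minutes to hours, were higher for 17 of 27 tested, with a median log2 difference of 0.28, 0 called by limma and 7 without overlap, all higher, against 4.04% of all tested genes. Ctgf, a matricellular protein and TGF-beta and YAP target, stood at 13.2, 7.92 and 7.72 CPM in the controls and at 16.6, 27.3 and 27.7 CPM under shiftwork (log2 difference 1.46, SE 0.26). Atf3, a stress-induced transcription factor, stood at 6.43, 5.2 and 13.4 CPM in the controls and at 26.6, 14.6 and 25.5 CPM under shiftwork (1.63, SE 0.49). Both genes were separated between the groups, Atf3 by a narrow gap. Over the list, log2 differences ran from -1.49 to 3.2. The 28 genes of the list summed to 1601, 1636 and 997.4 CPM in the controls and to 1322, 1313 and 1591 CPM under shiftwork. Control replicate 3, the lowest of these sums, is the only control left without the 3 libraries. In that fit 25 of 27 genes were higher, with a median of 0.60, whereas the difference of Atf3 was 0.44.

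Glucocorticoid-responsive genes were higher for 13 of 17, with a median of 0.53, or 0.45 without the 3 libraries, and 4 were higher without overlap, against 4.04% of all tested genes. Angptl4, a secreted inhibitor of lipoprotein lipase, stood at 112, 147 and 364 CPM in the controls and at 448, 660 and 520 CPM under shiftwork (log2 difference 1.70, SE 0.51). Cdkn1a, the cell cycle inhibitor p21, stood at 35.4, 65.0 and 31.3 CPM in the controls and at 73.4, 115 and 99.9 CPM under shiftwork (1.33, SE 0.29). Neither pair of groups overlapped, and for Angptl4 control replicate 3 lay nearest to shiftwork, where the difference without the 3 libraries was 0.60. Sgk1, a kinase of the same pathway, had groups that overlapped in CPM and a difference of 0.70 (SE 0.24).

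Heat shock and chaperone genes were higher for 15 of 18, with a median of 0.30, or 0.05 at the lowest when 1 library was left out and 0.27 without the 3 libraries. Hspb1, a small heat shock protein, stood at 15.8, 11.2 and 9.51 CPM in the controls and at 21.7, 21.8 and 47.5 CPM under shiftwork (1.39, SE 0.34). Cirbp, an RNA-binding protein induced by cold, stood at 95.2, 118 and 56.1 CPM in the controls and at 38.6, 48.3 and 27.8 CPM under shiftwork (-1.06, SE 0.29). The 2 genes went opposite ways, each without overlap, and the difference of Cirbp was -0.70 without the 3 libraries. Endoplasmic reticulum stress genes were higher for 16 of 18, with a median of 0.32. In CPM 0 of 18 were higher without overlap, against 4.04% of all tested genes. In normalized reads 4 of 18 were, against 7.35% of all tested genes. Hspa5, the chaperone BiP, stood at 974 CPM in shiftwork replicate 3 and at 329 to 513 CPM in the other 5 libraries, and the list median was 0.05 in the fit without that library and 0.66 without the 3 libraries, which keeps it.

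Lipogenic genes were highest in 1 control. Of 27 tested, 18 were lower under shiftwork, with a median of -0.26, 0 called and 3 lower without overlap, against 6.58% of all tested genes. Scd2, a fatty acid desaturase, stood at 996, 1202 and 1380 CPM in the controls and at 719, 661 and 595 CPM under shiftwork (log2 difference -0.70, SE 0.26). Elovl6, which elongates palmitate, stood at 58.1, 71.8 and 251 CPM in the controls and at 11, 21 and 53.6 CPM under shiftwork (-1.99, SE 0.78). Fads1, the delta-5 desaturase, stood at 83.0, 106 and 104 CPM in the controls and at 47.2, 49.8 and 75.9 CPM under shiftwork (-0.64, SE 0.25). All 3 were separated between the groups in CPM, but only Scd2 also in normalized reads, and without the 3 libraries Scd2 and Elovl6 stood at -1.22 and -2.98.

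The most abundant lipogenic enzymes overlapped between the groups. Fasn, the fatty acid synthase, stood at 4309, 9699 and 17297 CPM in the controls and at 2515, 2954 and 4427 CPM under shiftwork (-1.34, SE 0.60). Scd1, the main desaturase of fat, stood at 4533.5, 8049 and 12021 RPKM in the controls and at 3233, 2721 and 4764 RPKM under shiftwork, the highest gene of the tissue per length (log2 difference -0.98, SE 0.54). The differences of Fasn and Scd1 were -2.34 and -1.82 without the 3 libraries. Control replicate 3 was the highest library for both, and the control with few lymph node transcripts. Without the 3 libraries 25 of 27 lipogenic genes were lower, with a median of -0.89, whereas the list median was 0.10 without control replicate 3 and 0.02 without shiftwork replicate 3.

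Other metabolic lists depended on the same libraries. Fatty acid oxidation genes were higher for 20 of 22 with a median of 0.24, but for 3 of 22 with a median of -0.41 without the 3 libraries. Nuclear genes of oxidative phosphorylation were higher for 38 of 41 with a median of 0.14, which became -0.01 with total count scaling, -0.03 without control replicate 1, and -0.44 with 0 of 41 higher without the 3 libraries. Lipolysis and lipid droplet genes had medians of 0.28 and, without the 3 libraries, -0.18. In that list Plin2, a lipid droplet coat protein, was separated in CPM, at 415, 387 and 568 CPM in the controls and 621, 602 and 687 CPM under shiftwork, but overlapped in normalized reads, and its log2 difference of 0.64 (SE 0.26) was 0.097 without the 3 libraries. Cpt1a, the gate of mitochondrial fatty acid uptake, stood at 159, 179 and 130 CPM in the controls and at 218, 177 and 196 CPM under shiftwork (0.49, SE 0.18). Its groups overlapped in CPM but not in normalized reads.

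Cholesterol synthesis genes had a median of 0.01, which was -0.11 with total count scaling, and 12 of 24 were higher. Thermogenic and beige genes had a median of 0.03, which was -0.12 with total count scaling and -0.54 without the 3 libraries. Ucp1, the uncoupling protein of heat-producing adipocytes, was low in every library, at 3.76, 0.384 and 7.37 CPM in the controls and 0.800, 0.946 and 4.89 CPM under shiftwork, with overlapping groups. Cytosolic ribosomal protein genes were lower for 43 of 45 with a median of -0.36, but higher for 34 of 45 with a median of 0.12 without the 3 libraries. Their sum was highest in control replicate 2, at 7987 CPM against 2962 to 5186 CPM elsewhere, and that library also had the highest lymphocyte sums.

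Adipokine genes were higher for 12 of 18, with a median of 0.39, or 0.17 without the 3 libraries. Apart from Apln and Angptl4, Ccl2 was separated, as described with the chemokines. Leptin and adiponectin, the best known hormones of fat and named here after their values were seen, overlapped between the groups. Lep stood at 2517, 1524 and 1346 CPM in the controls and at 2719, 4696 and 1275 CPM under shiftwork, and Adipoq at 1582, 1130 and 2592 CPM against 2136, 2595 and 1723 CPM. Among adipocyte identity and insulin signalling genes the median was 0.17, which was -0.01 without control replicate 2 and -0.31 without the 3 libraries. Cebpb, an early adipogenic and acute phase transcription factor, stood at 64.7, 60.5 and 102 CPM in the controls and at 102, 121 and 182 CPM under shiftwork (log2 difference 0.97, SE 0.34). Irs2, an adaptor of the insulin receptor, stood at 118, 120 and 112 CPM in the controls and at 79.5, 58.8 and 80.1 CPM under shiftwork (-0.55, SE 0.20). Irs2 was clearly separated, while the Cebpb groups nearly touched and its difference was 0.45 without the 3 libraries.

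All 33 tested collagen and matrix genes had a higher value under shiftwork, with a median log2 difference of 0.84, 0 called by limma, 4 called by DESeq2 (0.854% of all tested genes) and 9 without overlap, against 4.04% of all tested genes. Without the 3 libraries 25 of 33 were higher, with a median of 0.36, and over the fits that left out 1 library the median ran from 0.47 to 1.11. The basement membrane collagens were separated with little spread. Col4a1 stood at 2104, 2207 and 2118 CPM in the controls and at 3289, 3599 and 3291 CPM under shiftwork (0.81, SE 0.22). Col4a2, its partner chain, stood at 1518, 1703 and 1368 CPM in the controls and at 2604, 2900 and 1975 CPM under shiftwork (0.84, SE 0.25).

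Among the collagens of fibrils, Col5a1 stood at 384, 324 and 480 CPM in the controls and at 657, 610 and 948 CPM under shiftwork (1.03, SE 0.29). The groups did not overlap, shiftwork replicate 3 was highest, and the difference was 0.58 without the 3 libraries. That library also had the highest sum of the list, 50500 CPM, against 29270 and 29400 CPM in the other shiftwork libraries and 17620 to 26340 CPM in the controls. Genes of TGF-beta ligands, receptors and targets had a median of 0.14, which was -0.0031 with total count scaling. Smooth muscle genes were higher for 10 of 11 with a median of 0.65, or 1.04 for 11 of 11 without the 3 libraries. Synpo2, an actin-associated protein of muscle, stood at 297, 250 and 148 CPM in the controls and at 686, 589 and 369 CPM under shiftwork without overlap (1.4, SE 0.32), with its highest value in shiftwork replicate 1, the library with skeletal muscle transcripts.

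Blood vessel genes had small differences in one direction. All 16 genes of blood endothelium and pericytes had a higher value under shiftwork, with a median of 0.43, or 0.49 without the 3 libraries. The groups were separated for 0 of 16 in CPM, against 4.04% of all tested genes. In normalized reads 3 of 16 were separated, against 7.35% of all tested genes. Pdgfrb, a receptor of pericytes and progenitors, stood at 191, 148 and 140 CPM in the controls and at 202, 235 and 185 CPM under shiftwork (0.53, SE 0.17). In CPM its control replicate 1 lay above shiftwork replicate 3. Tek, the endothelial angiopoietin receptor, stood at 78.8, 50.6 and 59.3 CPM in the controls and at 91.7, 112 and 68.5 CPM under shiftwork (0.67, SE 0.24), again with overlap in CPM. Pdgfrb and Tek were both separated in normalized reads. Adipose progenitor and fibroblast genes were higher for 16 of 20 with a median of 0.41, but for 7 of 20 with a median of -0.14 without the 3 libraries.

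Lymphocyte lists were far lower under shiftwork when control replicates 1 and 2 were included. All 17 B and plasma cell genes tested were lower, with a median of -4.24, or -0.38 without the 3 libraries. All 22 T and NK cell genes were lower, with a median of -2.70, but 21 of 22 were higher, with a median of 0.87, without the 3 libraries. All 10 genes of MHC class II, which presents antigen to helper T cells, were lower with a median of -1.0, and all 10 were higher with a median of 0.35 without the 3 libraries. Their sum was 5308 and 9170 CPM in control replicates 1 and 2 and 1299 CPM in control replicate 3, against 1664 to 1962 CPM under shiftwork. Ebf1 of the B cell list, a factor that adipocytes also use, did not follow the split, at 285, 186 and 216 CPM in the controls and 131, 246 and 193 CPM under shiftwork. Prox1, the lymphatic endothelial regulator, stood at 14, 16.9 and 1.07 CPM in the controls and at 0.333, 0.841 and 1.75 CPM under shiftwork, and its log2 difference of -2.81 (SE 1.10) was 0.10 without the 3 libraries.

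Chemokine, cytokine and acute phase genes were higher for 16 of 20, with a median of 0.81, 0 called by limma, 4 called by DESeq2 and 6 without overlap, against 0.854% and 4.04% of all tested genes. Without the 3 libraries 18 of 20 were higher, with a median of 1.35. Hp, the acute phase protein haptoglobin that fat also secretes, stood at 1071, 1565 and 1075 CPM in the controls and at 5920, 3240 and 2366 CPM under shiftwork (log2 difference 1.70, SE 0.42). Ccl2, which attracts monocytes, stood at 9.22, 8.79 and 3.89 CPM in the controls and at 19.7, 16.6 and 105 CPM under shiftwork (2.39, SE 0.73). Every shiftwork library exceeded every control for both genes, with the highest Hp in replicate 1 and the highest Ccl2 in replicate 3. Cxcl14 was also separated, at 52, 60.4 and 32.4 CPM in the controls and 90.3, 66.3 and 73.9 CPM under shiftwork (0.85, SE 0.25). Lbp, which binds bacterial lipopolysaccharide, was high in shiftwork replicates 1 and 2 only, at 408 and 446 CPM, against 182 CPM in replicate 3 and 150 to 225 CPM in the controls (1.01, SE 0.38).

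Macrophage genes were higher for 18 of 23, with a median of 0.52, or 0.32 without the 3 libraries. Lgals3, the lectin galectin-3, was separated, at 141, 165 and 232 CPM in the controls and 347, 253 and 634 CPM under shiftwork (1.27, SE 0.42, or 0.71 without the 3 libraries). Trem2, a receptor of lipid-associated macrophages, stood at 7.26, 5.02 and 24.0 CPM in the controls and at 35.7, 19.8 and 30.1 CPM under shiftwork. Control replicate 3 lay above shiftwork replicate 2, and the log2 difference of Trem2 was 1.68 (SE 0.66) with all libraries and -0.05 without the 3. Csf1r, the receptor that defines macrophages, was level, at 312, 356 and 315 CPM in the controls and 376, 201 and 381 CPM under shiftwork.

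Lysosomal and autophagy genes, which are also high in macrophages, were higher for 18 of 22 with a median of 0.40, or 0.11 without the 3 libraries, with 5 higher and 1 lower without overlap, against 4.04% and 6.58% of all tested genes. Ctsl, the protease cathepsin L, stood at 416, 429 and 496 CPM in the controls and at 791, 761 and 760 CPM under shiftwork (0.93, SE 0.22, DESeq2 adjusted p 0.00687). Npc2, a cholesterol carrier of the lysosome, stood at 490, 556 and 609 CPM in the controls and at 719, 735 and 767 CPM under shiftwork (0.57, SE 0.22). Both were separated with narrow spread within the shiftwork group, control replicate 3 was the control nearest to shiftwork, and the differences without the 3 libraries were 0.53 and 0.22.

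Shiftwork replicate 3 stood apart for interferon genes, while neutrophil genes were high in that library and in control replicate 2. The 25 interferon response genes summed to 2515 CPM in that library, against 509.8 and 567.2 CPM in the other shiftwork libraries and 511.9 to 912.7 CPM in the controls. Isg15, a ubiquitin-like protein induced by interferon, stood at 10.7, 7.68 and 5.00 CPM in the controls and at 7.90, 7.18 and 74.4 CPM under shiftwork. The list median was 0.51 with all libraries and -0.31 without shiftwork replicate 3, and at 1.16 without the 3 libraries it still held that replicate. Rsad2 (viperin), another interferon target, was separated in all shiftwork libraries, at 27.9, 14.8 and 19.0 CPM in the controls and 33.8, 41.7 and 62.4 CPM under shiftwork (1.30, SE 0.30, DESeq2 adjusted p 0.0144). The 10 neutrophil genes summed to 145 CPM in shiftwork replicate 3, to 91.95 CPM in control replicate 2 and to 10.9 to 32.55 CPM elsewhere. S100a9, a calcium-binding protein of neutrophils, stood at 43.8 CPM in shiftwork replicate 3 and 20.2 CPM in control replicate 2, and at 0.325 to 2.82 CPM in the other 4 libraries. Cxcr2, a chemokine receptor of the same list, was higher in control replicate 2, at 17.7 CPM, than in shiftwork replicate 3, at 12.0 CPM. Mast cell genes were low in shiftwork replicates 1 and 2, with sums of 145.8 and 118.4 CPM, and higher in shiftwork replicate 3, at 387.5 CPM, than in the controls, at 263.5 to 307.5 CPM.

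**Figure D5:**
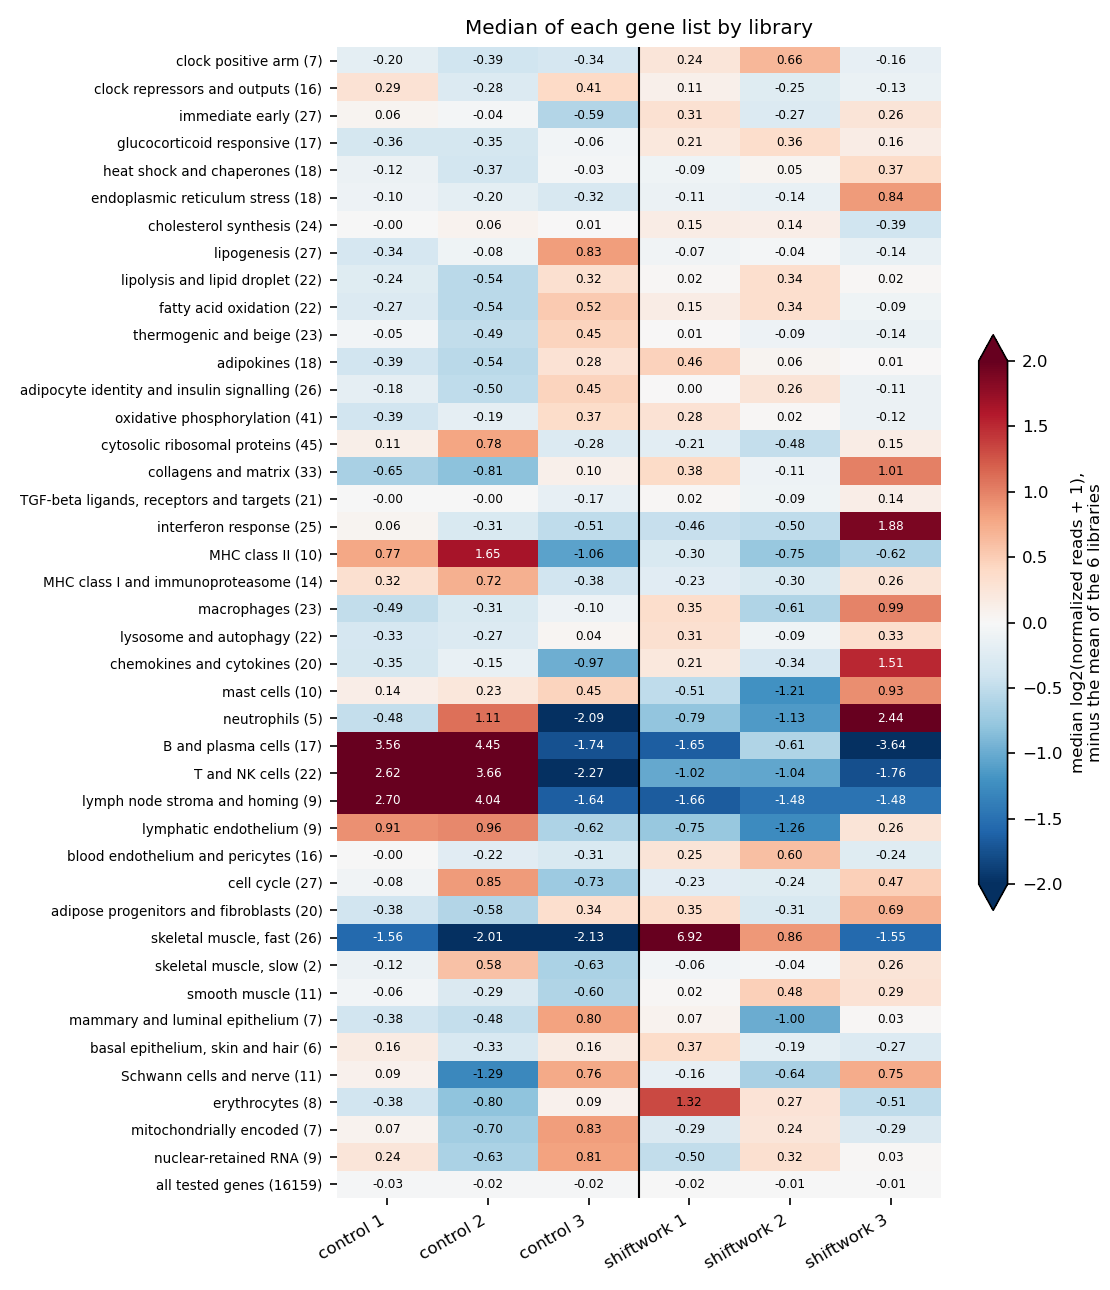
Median of each gene list (number of tested genes in parentheses) in each library, as log2(normalized reads + 1) minus the mean of the 6 libraries; red is higher and blue lower, and the black line separates controls from shiftwork. The lymphocyte lists are high in control replicates 1 and 2, fast muscle is 6.92 in shiftwork replicate 1, interferon response is 1.88 in shiftwork replicate 3, and collagens and matrix run from -0.81 in control replicate 2 to 1.01 in shiftwork replicate 3.

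The most abundant transcripts per length overlapped between the schedules in RPKM. After Scd1, the genes with the highest mean RPKM included Gsn (gelsolin, an actin-severing protein), Car3 (carbonic anhydrase III of adipocytes), Cfd (adipsin, a serine protease of complement) and the class I light chain B2m. Car3 stood at 2090.5, 1747 and 5716 RPKM in the controls and at 2461, 4050 and 2550 RPKM under shiftwork. Cfd stood at 2501, 1538 and 4051 RPKM in the controls and at 789, 1455 and 3398 RPKM under shiftwork. For both genes control replicate 3 was highest, and the groups overlapped. B2m, at 1961 to 2439 RPKM in all 6 libraries, varied least of these genes, and in normalized reads its shiftwork values lay above all controls (log2 difference 0.18, SE 0.20). Gm42418, a predicted gene that overlaps ribosomal RNA sequence, ranged from 1280 RPKM in shiftwork replicate 2 to 11352 RPKM in shiftwork replicate 3.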

How the data were processed

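RNA sequencing of inguinal fat was analysed from 2 tables. Per the submitters' processing notes STAR, HTSeq, DESeq2, limma and edgeR were used with the builds mm10 and GRCm38, with no version or role given. Strand-specific counting is not given in the sources used here, so overlapping and antisense genes cannot be told apart, and paralogs may share reads. For inguinal fat the deposited values are a normalized signal, whole reads divided by a size factor per library, although the table is called a count table. Dividing by the smallest step gave whole reads for 100% of 310956 values (within 1e-06). RPKM was deposited by the authors for the same 51826 genes and equals the CPM of the recovered reads per kilobase. For epididymal fat the authors deposited whole read counts, used only for clock gene levels in CPM. Gene positions are those of the epididymal table. The authors' own comparison columns were not used, and 0 columns of other samples were present.

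Genes were kept by filterByExpr (minimum count 10, minimum total 15; 16159 genes) and tested with limma 3.58.1 (trend, robust) in R 4.3.3 on log2(value + 1), where the pseudocount understates changes of low genes, two-sided, 3 against 3 libraries, with Benjamini-Hochberg adjustment over all tested genes and a call at 0.05. edgeR 4.0.16 and DESeq2 1.42.0 on the recovered reads, other scalings, pseudocounts and filters, a replicate block and leaving libraries out were alternatives. The fit was tested on simulated data, where recovery was required only at a dispersion far below the observed one. That test does not show that changes would be found at the spread of these libraries. No library was a copy of another. The comparison and the 42 gene lists were chosen with earlier results of these data known. Named genes are all clock genes, the 10 genes per direction with the smallest p among those of mean CPM of at least 1 without overlap (predicted genes, Riken clones and antigen receptor segments left out), up to 4 per list by p, up to 3 per marker list by level, the 10 highest by RPKM, Cd79a and Ckm; further genes, among them Wap, Csn2, Krt5, Krt14, Flg, Myod1, Myh7, Lep, Adipoq, Ubd and Ucp1, were named after their values were seen. Of the named genes, some are not reported here. Promoter windows are from RefSeq (GRCm38.p6).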

Additional observations from a re-analysis of the deposited data

How the results depend on the processing

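With 3 libraries per group, the number of calls depended on the test and on 1 library. limma called 0 genes; DESeq2 called 445, limma with array weights 4123 (the weights did not converge, and control replicate 1 received a weight of 46.8 against 0.226 to 1.15 for the others), and the fits that left out 1 library from 0 to 372, with 372 only without control replicate 3; the cause was not tested. The replicate numbers did not pair the samples (correlations of same-numbered libraries -0.143, -0.176 and 0.0239), and the fit with the replicate block called 0 genes. The other 11 alternatives also called 0. Genes without overlap numbered 1717, and leaving out 1 library gave 2332 to 6473 in all, 907 to 1584 higher and 1241 to 5216 lower; without 3 libraries there were 9812 (6420 higher, 3392 lower), since fewer samples overlap less often. TMM scaling gave 1070 higher genes and the normalized reads, added after seeing the data, 1188, against 653 in CPM. Of 41 list medians 27 were above 0, and 21 to 28 in the alternatives, but 17 changed sign without the 3 libraries. Of all 229 named genes, 91 changed sign in at least 1 alternative and 67 did so without the 3 libraries, among them 10 of the 23 clock genes in any alternative. Among the named genes with an unadjusted p under 0.05, 2 reversed, Trem2 (-0.054) and Prox1 (0.10), both without 3 libraries. Genes that were not named were not compared in this way.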

Other observations

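Several cell types outside the comparison left traces in single libraries. Ngp and Ltf, granule proteins of immature neutrophils, had 236 and 195 reads in control replicate 2 and at most 5 and 25 reads in any other library. The 8 haemoglobin and other erythrocyte genes summed to 1033 CPM in shiftwork replicate 1 and to 306.6 to 588.1 CPM in the other 5 libraries. The cell cycle gene Ube2c stood at 35.2 CPM in shiftwork replicate 1, against 3.20 to 9.95 CPM in the others, while Cdk1 stood at 6.80 CPM there, within the range of the others. Lyve1 and Pdpn, genes of lymphatic endothelium that macrophages and stromal cells can also carry, stood at 142 and 159 CPM in shiftwork replicate 3 and at no more than 109 and 27.8 CPM elsewhere, whereas Prox1 was at 1.75 CPM there. Mt1 and Mt2, the metal-binding metallothioneins, stood at 306 and 320 CPM in shiftwork replicate 3 and at no more than 58.5 and 28.7 CPM in the other 5 libraries. These genes were singled out after their values were seen.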
